A study of Chlorella sp. with 12 samples.

Results

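The enzymes that supply pyruvate, malate and acetyl-CoA were followed in *Chlorella* sp. TLD6B, a unicellular green alga isolated from the Taklimakan Desert. They were chosen by KEGG orthology (KO) identifier, an annotation of enzyme function that the deposited table gives for each unigene, which is the longest transcript of a cluster of a de novo assembly. The 9 identifiers were pyruvate, phosphate dikinase (PPDK, K01006), phosphoenolpyruvate carboxylase (PEPC, K01595), the NAD and NADP malic enzymes (NAD-ME, K00028, and NADP-ME, K00029), ATP-citrate lyase (ACL, K01648) and the pyruvate dehydrogenase (PDH) complex with its subunits E1 alpha (K00161), E1 beta (K00162), E2 (K00627) and E3, dihydrolipoyl dehydrogenase (K00382). They held 280 of the 155503 unigenes and 9 of the 3282 KO identifiers in the table.

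RNA-seq of cultures in BBM medium gave 12 libraries in 6 groups of 2. Cells without any addition were sampled at day 0 (CK0) and at day 18 (CK18). The other 4 groups were sampled at day 18 after 0.1 M NaCl (Nacl1, low salinity), 0.8 M NaCl (Nacl2, high salinity), 0.05 g/mL PEG-6000 (PEG1) or 0.1 g/mL PEG-6000 (PEG2). PEG is a polymer that lowers the water potential of the medium. All groups were the same strain. The study calls the 2 libraries of a group biological replicates without saying whether they came from separate cultures, so the p-values measure the spread between these libraries, which may be partly technical. The comparisons asked how each treatment differed from the untreated culture of the same day, how the stronger treatment differed from the milder one, and how the untreated culture differed between the 2 days. All 4 treatments were compared with the same CK18 libraries, and the comparison of days used them as well.

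Pyruvate stands at a branch between carbon storage and respiration. PPDK interconverts pyruvate and phosphoenolpyruvate, PEPC carboxylates phosphoenolpyruvate to oxaloacetate, and the malic enzymes decarboxylate malate to pyruvate while reducing NAD or NADP. The PDH complex turns pyruvate into acetyl-CoA, in the mitochondrion for respiration and, in plants and green algae, in the plastid for fatty acid synthesis. E1 decarboxylates pyruvate, E2 transfers the acetyl group to coenzyme A, and E3 re-oxidises the lipoyl arm of E2 and is shared with other 2-oxoacid dehydrogenases. ACL makes acetyl-CoA from citrate in the cytosol.

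Values were FPKM, fragment numbers that the authors normalised for transcript length and for library size. They were summed over the unigenes of an enzyme and divided by a factor for each library, the median ratio of all KO sums. These scaled FPKM sums are levels per transcript length. A difference was called higher or lower when limma's moderated test gave a Benjamini-Hochberg adjusted p below 0.05 over all features tested and the log2 fold change, on the log2(value + 0.1) scale, was at least 1 in size. All adjusted p-values below are from this test. The files give no counts, so the depth behind a value is unknown. In a whole culture, fewer cells that express an enzyme and less RNA per cell cannot be told apart.

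The libraries held 72356 to 98278 unigenes above 0, and their FPKM summed to 2218732.86 to 3775373.51. The library factors ran from 0.691 to 1.49 and moved with the groups: both CK18 and both PEG2 libraries were between 0.691 and 0.743, and all other libraries were at 1.01 or above. With FPKM as deposited, the median of all 3205 KO sums shifted by 0.75 (Nacl1), 0.87 (Nacl2), 0.61 (PEG1) and 0.05 (PEG2) on the log2 scale against CK18 and by -0.97 between day 18 and day 0, against 0.12, -0.07, 0.05, 0 and -0.07 after scaling. Of the KO sums called, 57.1% (Nacl1), 51.4% (Nacl2), 52.3% (PEG1), 44.8% (PEG2) and 51.2% (CK18 against CK0) were higher after scaling, against 92%, 87.5%, 84.9%, 54.5% and 19.2% with the deposited values. Changes of the sums are therefore given relative to the median KO sum. Single unigenes were scaled by factors of their own. With those factors the median KO sum shifted by 0.27 (Nacl1), 0.59 (Nacl2), 0.14 (PEG1) and -0.004 (PEG2) against CK18. Between the days it shifted by -0.30. The change of a unigene and that of a sum are therefore on different scales. By the read-quality table of the study, 5 libraries (CK0 replicate 1, both Nacl1, Nacl2 replicate 2 and PEG1 replicate 1) fell in the lower class, and the part of read quality in the results was tested only as a covariate.

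The 280 unigenes were 203 to 10824 bp long, 213 of them had a best protein hit in a green alga, and these 213 gave 96.9% to 100% of the FPKM of each enzyme over all libraries, with 64.5% for NAD-ME in its lowest library. Of the 280, 181 passed the filter of 0.3 FPKM as deposited in at least 2 libraries and 20 were listed at 0 in every library. PEPC had 44 unigenes, E3 41, E2 36, NADP-ME 36, ACL 31, E1 beta 29, E1 alpha 28, NAD-ME 26 and PPDK 9. All 280 together took 0.0880% to 0.262% of the FPKM of a library, and PPDK alone took 0.0276% to 0.242%. By FPKM sum, PPDK was the highest of the 9 enzymes in all 12 libraries. However, 72.3% of its FPKM came from 4 unigenes shorter than 500 bp. Whether several of them are pieces of 1 transcript, which the sum would count more than once, was not tested. In Nacl2 its highest unigene by mean had 259 and 143 deposited FPKM, and that of ACL had 307 and 298.

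At 0.1 M NaCl, 2 of the 9 enzyme sums were called higher (E2 and PEPC) and 2 lower (ACL and PPDK), where 16.7% of all KO sums were called. At 0.8 M NaCl, 3 were higher (PEPC and both malic enzymes) and 1 was lower (PPDK), where 45.3% of all KO sums were called. In 0.05 g/mL PEG-6000, 3 were higher (E2, PEPC and NADP-ME) and 2 lower (ACL and PPDK), against 25.4% of all. In 0.1 g/mL PEG-6000, 1 was lower (ACL), against 5.71%. From day 0 to day 18, 3 were higher (E1 alpha, E1 beta and PPDK) and 2 lower (both malic enzymes), against 47.5%. The share of members called was near the background at 0.8 M NaCl and between the days. Of all KO sums, 9.52% were called higher and 7.15% lower in Nacl1, 23.3% and 22% in Nacl2, 13.3% and 12.1% in PEG1, 2.56% and 3.15% in PEG2, and 24.3% and 23.2% from day 0 to day 18.

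The median log2 fold change of the 9 sums was 0.44 at 0.1 M NaCl, 0.13 at 0.8 M NaCl, 0.58 in PEG1, 0.06 in PEG2 and 0.37 from day 0 to day 18. Between the 2 salt levels, 1 was higher (NAD-ME) and 1 lower (PPDK) at 0.8 M NaCl, against 33.1% of all KO sums called. Between the 2 PEG levels, 1 was higher (PPDK) at 0.1 g/mL, against 15.5%, and Nacl2 against PEG2 gave 2 higher (NAD-ME and ACL) and 1 lower (PPDK), against 39.3%. In these comparisons 16.4%, 8.3% and 20.4% of all KO sums were called higher and 16.7%, 7.24% and 18.8% lower. Single libraries moved these counts. The count for Nacl1 was 2 without CK18 replicate 1 or Nacl1 replicate 1, and that for Nacl2 was 2 without CK18 replicate 1 or Nacl2 replicate 2. The count for PEG2 was 0 without CK18 replicate 1 and 3 without PEG2 replicate 1. Between the salt levels it was 1 without either Nacl1 library and 0 without Nacl2 replicate 2, and between the PEG levels it was 0 without PEG1 replicate 2 and 4 without PEG2 replicate 2.

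**Figure D1:**
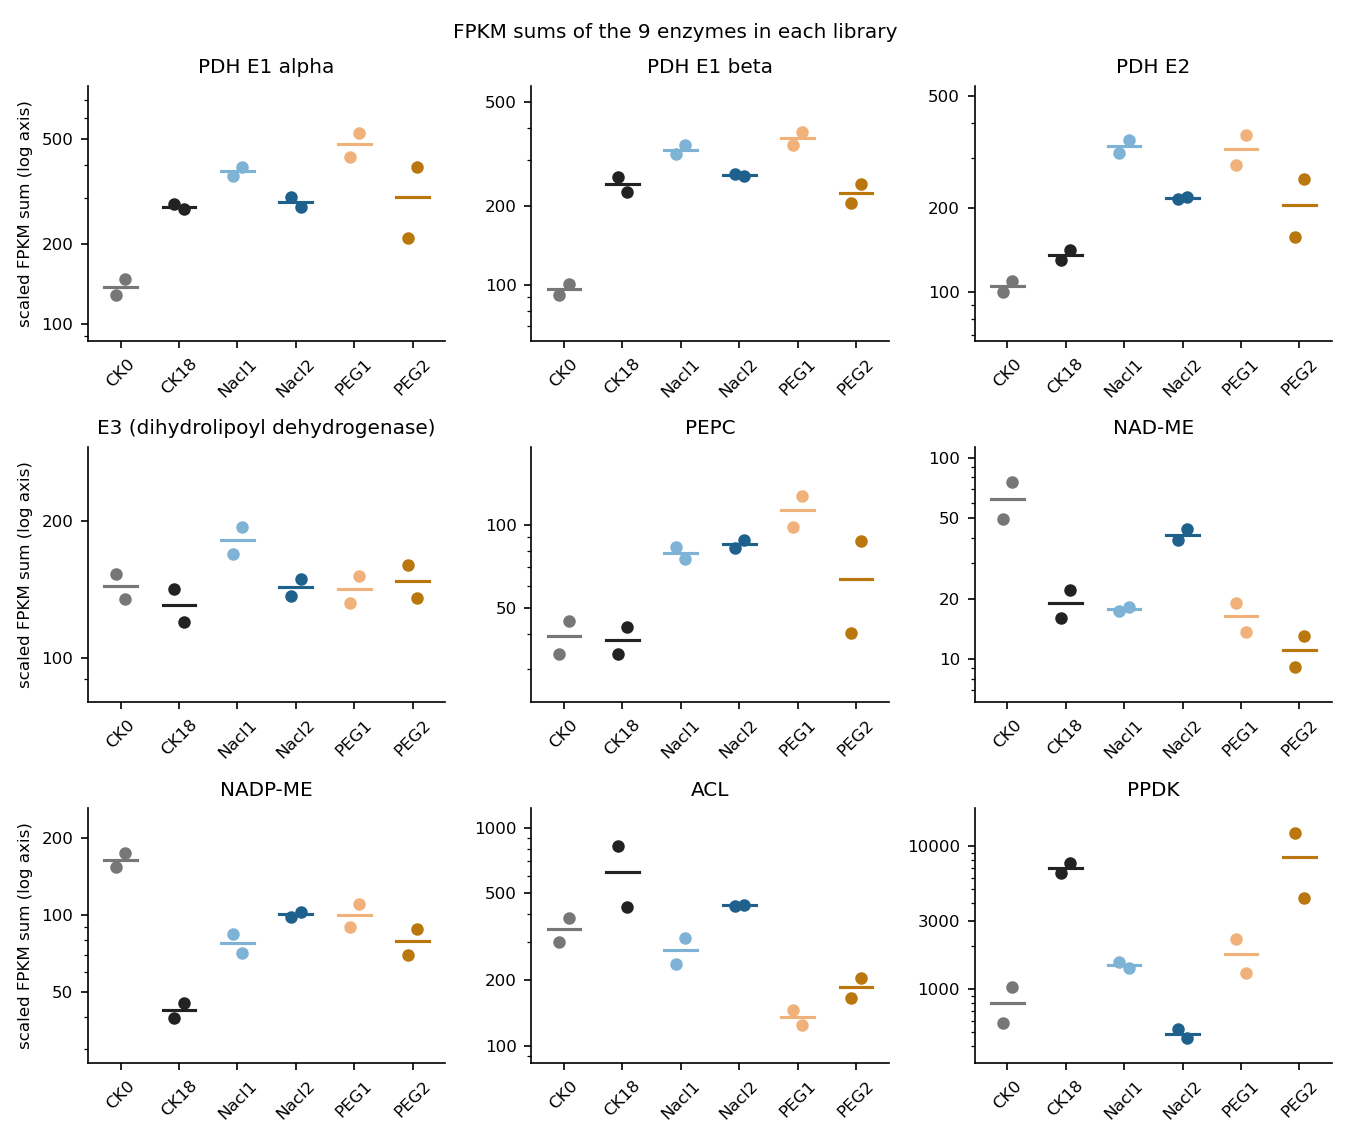
Scaled FPKM sum (log axis) of each of the 9 enzymes in each library, by group. Points are the 2 libraries of a group and the bar is their mean. PPDK runs from 456 to 12309.7, while E3 stays between 120.1 and 194.

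PPDK showed the widest range of the 9 enzymes, with group means from 491 (Nacl2) to 8331 (PEG2). Its scaled FPKM sum was 579 and 1031 in the CK0 libraries, 6443 and 7627 in CK18, 1548 and 1407 in Nacl1, 526 and 456 in Nacl2, 2258 and 1291 in PEG1, and 12309.7 and 4352 in PEG2. Both CK18 libraries were above all CK0, NaCl and PEG1 libraries, while the PEG2 libraries lay on either side of CK18.

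PPDK was up-regulated 9.07-fold from day 0 to day 18 (log2 fold change 3.18 ± 0.44 SE, adjusted p = 0.00013, n = 2 libraries a group in every comparison). It was down-regulated against CK18 by 4.75-fold at 0.1 M NaCl (-2.25 ± 0.44, adjusted p = 0.00578), 14.3-fold at 0.8 M NaCl (-3.84 ± 0.44, adjusted p = 6.44e-05) and 4.11-fold in PEG1 (-2.04 ± 0.44, adjusted p = 0.00528). In PEG2 the log2 difference was 0.06 with a 95% interval of -0.92 to 1.049. The high salinity libraries were 3.01-fold below the low salinity ones (-1.59, adjusted p = 0.0149), and PEG2 was 4.29-fold above PEG1 (2.10, adjusted p = 0.00784).

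The direction of each PPDK change called held under all 27 alternative settings. Some calls rested on single libraries: without PEG1 replicate 2 the adjusted p was 0.0553 for PEG1 against CK18 (-1.62) and 0.0802 for PEG2 against PEG1 (1.69), and the difference between the salt levels was lost without either Nacl1 library or without Nacl2 replicate 2 (adjusted p 0.0555 to 0.0790). That difference was also not called after quantile normalization (-1.20), with the factors of the unigenes (-1.02) or after division by total FPKM (-0.89). With read quality as a covariate the Nacl1 call was lost (adjusted p = 0.0502). Of the PPDK FPKM, 72.3% came from 4 unigenes shorter than 500 bp. With unigenes of at least 500 bp alone the log2 changes were -3.93 at 0.8 M NaCl and 2.91 from day 0 to day 18.

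The 3 highest PPDK unigenes gave 84.7% of its FPKM and each was highest in PEG2 replicate 1 and low in CK0 and Nacl2. The unigenes of an enzyme can be similar enough to share reads, so how the authors' counting divided reads among them was not tested. On the scale of the single unigenes, Cluster-31803.58452 (1735 bp) was at 251 and 299 in CK0, 1586 and 1768 in CK18, 422 and 343 in Nacl1, 185 and 191 in Nacl2, 490.0 and 278 in PEG1, and 2776 and 966 in PEG2, a log2 difference of -3.15 between Nacl2 and CK18 (adjusted p = 0.00158). Cluster-31803.48476 (381 bp) was at 1561 and 1585 in CK18 and at 157 and 161.7 in Nacl2, a log2 difference of -3.30 (adjusted p = 0.00122). The highest of all, Cluster-31803.58453, was only 203 bp long, with 1595.4 and 1779 in CK18 and 247 and 148 in Nacl2 (-3.14, adjusted p = 0.00875, lost without Nacl2 replicate 2 with a log2 difference of -2.70).

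PEPC, which carboxylates phosphoenolpyruvate, was low in both untreated groups and higher in both salt groups and in PEG1. Its scaled FPKM sum was 34.0 and 44.6 in CK0, 34.0 and 42.4 in CK18, 83.1 and 75.0 in Nacl1, 82.4 and 88.1 in Nacl2, 97.8 and 127.7 in PEG1, and 40.4 and 87.0 in PEG2. All Nacl1, Nacl2 and PEG1 libraries were above all untreated ones, while PEG2 replicate 1 was within the CK18 range and PEG2 replicate 2 was not.

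PEPC was up-regulated 2.08-fold at 0.1 M NaCl (log2 fold change 1.054 ± 0.32 SE, adjusted p = 0.0336), 2.24-fold at 0.8 M NaCl (1.16 ± 0.32, adjusted p = 0.0108) and 2.94-fold in PEG1 (1.55 ± 0.32, adjusted p = 0.004). In PEG2 the difference was 0.64 (interval -0.07 to 1.36), between the days -0.04 (-0.75 to 0.68) and between the salt levels 0.11 (-0.61 to 0.82). All settings kept the direction of the 3 calls. The Nacl1 call was lost without any 1 library of CK18, Nacl1 or Nacl2 (log2 0.89 to 1.21, adjusted p 0.0526 to 0.170), after quantile normalization (0.91) and with read quality as a covariate (1.28, adjusted p = 0.0859), and the Nacl2 call was lost without CK18 replicate 1 (1.001, adjusted p = 0.0721) or Nacl2 replicate 2 (1.12, adjusted p = 0.0555).

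The PEPC unigenes fell mainly on 2 proteins, CHLNCDRAFT_37051 of *Chlorella variabilis* and a putative PEPC of *Coccomyxa subellipsoidea*. The sum over the first was 8.97 and 9.63 in CK0, 13.7 and 13.9 in CK18, 48.3 and 46.4 in Nacl1, 41.1 and 45.6 in Nacl2, 47.1 and 64.9 in PEG1, and 14.9 and 42.5 in PEG2. It was higher than in CK18 in Nacl1 (log2 1.77 ± 0.41, adjusted p = 0.0286), Nacl2 (1.64, adjusted p = 0.0138) and PEG1 (1.996, adjusted p = 0.00566), where 7.92%, 32.6% and 23.1% of all 12151 protein sums were called. Those calls did not all stand without 1 of the libraries: for Nacl1 any library of CK18, Nacl1 or Nacl2 ended the call (adjusted p 0.0517 to 0.133), for Nacl2 either CK18 library or Nacl2 replicate 2 (0.0554 to 0.0728), and for PEG1 its replicate 2 (0.0734).

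The *Coccomyxa*-like PEPC was at 16.9 and 24.9 in CK18 and at 47.6 and 60.2 in PEG1, where it was called higher (1.38, adjusted p = 0.0171, lost without CK18 replicate 1 or either PEG1 library, 0.0695 to 0.143). At 0.1 M and 0.8 M NaCl its differences were 0.54 and 0.98, neither called. Single unigenes have their own scale, so their changes are not directly comparable with those of the sums. Cluster-31803.102126 (annotated PEPC 1, 3561 bp) was at 6.47 and 7.11 in CK18 and at 39.8 and 41.8 in Nacl2 (2.57, adjusted p = 0.00747), and it reached 29.4 and 25.9 in Nacl1 (2.01, adjusted p = 0.0698, not called). Cluster-31803.33465 (PEPC 2, 6753 bp), with 40.2% of the PEPC FPKM, was at 13.3 and 19.2 in CK18 and at 48.1 and 50.1 in Nacl2 (1.61, adjusted p = 0.0105, lost without CK18 replicate 1 or either Nacl2 library with log2 1.29 to 1.69).

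Both malic enzymes were highest at day 0 and down-regulated by day 18. The NADP-ME sum was 154 and 175 in CK0, 39.6 and 45.6 in CK18, 84.4 and 71.3 in Nacl1, 98.7 and 103 in Nacl2, 90.0 and 111 in PEG1, and 69.9 and 88.5 in PEG2. All 8 treated libraries were above both CK18 libraries and below both CK0 libraries.

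NADP-ME fell 3.86-fold from day 0 to day 18 (log2 fold change -1.95 ± 0.19 SE, adjusted p = 1.42e-05). It was up-regulated against CK18 by 2.37-fold at 0.8 M NaCl (1.24 ± 0.19, adjusted p = 0.000364) and 2.35-fold in PEG1 (1.23 ± 0.19, adjusted p = 0.00106). At 0.1 M NaCl (0.87, adjusted p = 0.00929) and in PEG2 (0.89, adjusted p = 0.0235) the adjusted p was below the threshold and the size was not. The 3 calls held under every alternative setting. The fall lay mainly in unigenes whose Swiss-Prot name gives no compartment, at 119 and 107 in CK0 and 4.70 and 4.27 in CK18. Those named chloroplastic, with 64.3% of the FPKM, overlapped between the days, at 34.4 and 67.0 in CK0 and 34.9 and 41.4 in CK18.

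The NAD-ME sum was 49.8 and 75.5 in CK0, 15.9 and 22.0 in CK18, 17.3 and 18.2 in Nacl1, 38.9 and 44.1 in Nacl2, 19.1 and 13.6 in PEG1, and 9.14 and 13.0 in PEG2. Of the treated groups only Nacl2 was above CK18, Nacl1 and PEG1 overlapped it, and both PEG2 libraries were below it. NAD-ME fell 3.26-fold from day 0 to day 18 (-1.70 ± 0.29, adjusted p = 0.000512). At 0.8 M NaCl it was up-regulated 2.2-fold against CK18 (1.14 ± 0.29, adjusted p = 0.00717), 2.32-fold against 0.1 M NaCl (1.21, adjusted p = 0.00766) and 3.77-fold against PEG2 (1.91, adjusted p = 0.000382).

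The first of these NAD-ME differences was lost without CK18 replicate 1 (0.90, adjusted p = 0.0607) or Nacl2 replicate 2 (1.048, adjusted p = 0.0535) and after quantile normalization (0.83), and the second without Nacl2 replicate 2 (1.13, adjusted p = 0.0582). A single unigene carried much of them. Cluster-31803.57195 (6910 bp), annotated as the mitochondrial NAD-ME 2, gave 36.7% of the FPKM and was at 21.7 and 35.0 in CK0, 1.35 and 2.54 in CK18, 4.22 and 3.99 in Nacl1, 23.0 and 27.04 in Nacl2, 1.70 and 2.10 in PEG1, and 0.477 and 1.34 in PEG2. Its log2 difference was -3.82 from day 0 to day 18 (adjusted p = 0.00105) and 3.68 at 0.8 M NaCl (adjusted p = 0.00135). Without it the NAD-ME changes were -0.83 between the days, 0.64 at 0.8 M NaCl and 0.96 between the salt levels, none of them called.

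NADP-ME unigenes matched several proteins with unlike patterns. The sum over CHLNCDRAFT_35453 was 117 and 105 in CK0, 3.92 and 3.42 in CK18, 7.15 and 5.91 in Nacl1, 31.4 and 33.4 in Nacl2, 5.59 and 6.41 in PEG1, and 6.85 and 8.70 in PEG2. The day 0 and high salinity libraries stood above all others. It was 29.6-fold lower at day 18 (log2 -4.89, adjusted p = 1.32e-06), and at 0.8 M NaCl it was higher than CK18 (3.11 ± 0.23, adjusted p = 3.99e-05), Nacl1 (2.30) and PEG2 (2.06), under all settings run. Of all protein sums, 26.4% were called between the days, 20.8% between the salt levels and 26% between Nacl2 and PEG2. CHLNCDRAFT_35453 was also the best hit of some unigenes under the NAD-ME identifier, so the malic enzymes share this protein. The NAD-ME part was at 10.3 and 9.63 in CK0, 0.057 and 0.43 in CK18, and 2.70 and 2.03 in Nacl2.

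CHLNCDRAFT_140591 was instead highest in PEG1, with 62.0 and 85.7 against 11.1 and 19.1 in CK18 (2.32 ± 0.54, adjusted p = 0.0109, lost without CK18 replicate 1 or either PEG1 library, 0.0529 to 0.102). A protein annotated as a cytosolic NADP-ME of *Micromonas* was at 11.3 and 12.0 in CK18, 27.5 and 25.2 in Nacl1, 24.9 and 28.1 in Nacl2, 29.7 and 24.98 in PEG2 and only 9.36 and 9.07 in PEG1. It was called higher in Nacl1 (1.16, adjusted p = 0.0381) and Nacl2 (1.17, adjusted p = 0.0134) but lost both calls without either CK18 library or Nacl2 replicate 2 (adjusted p 0.0505 to 0.142). The Nacl1 call was also lost without any of the libraries of Nacl1 or PEG1 or without Nacl2 replicate 1, at adjusted p 0.0556 to 0.155. After quantile normalization neither was called (0.92 and 0.87).

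Some NADP-ME unigenes were close to absent in untreated cells at day 18. Cluster-31803.65823 (2175 bp) was at 53.7 and 32.5 in CK0 and 8.58 and 9.63 in Nacl2, was listed at 0 in both CK18 and both PEG2 libraries, and did not exceed 0.0717 in Nacl1 and PEG1. Cluster-31803.65816 (3132 bp) was at 68.7 and 57.1 in CK0 and at most 1.53 in any later library. No fold is given where the reference was listed at 0. The highest NADP-ME unigene by mean, Cluster-31803.25313 (1178 bp), was at 9.72 and 9.65 in CK18 and 34.4 and 38.7 in Nacl2 (1.90, adjusted p = 0.00211). Its best NR hit was in *Micromonas*, so it is part of the *Micromonas*-like sum above, there on the scale of the sums. Its Swiss-Prot name is chloroplastic while the NR name is cytosolic, and its location was not measured.

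**Figure D2:**
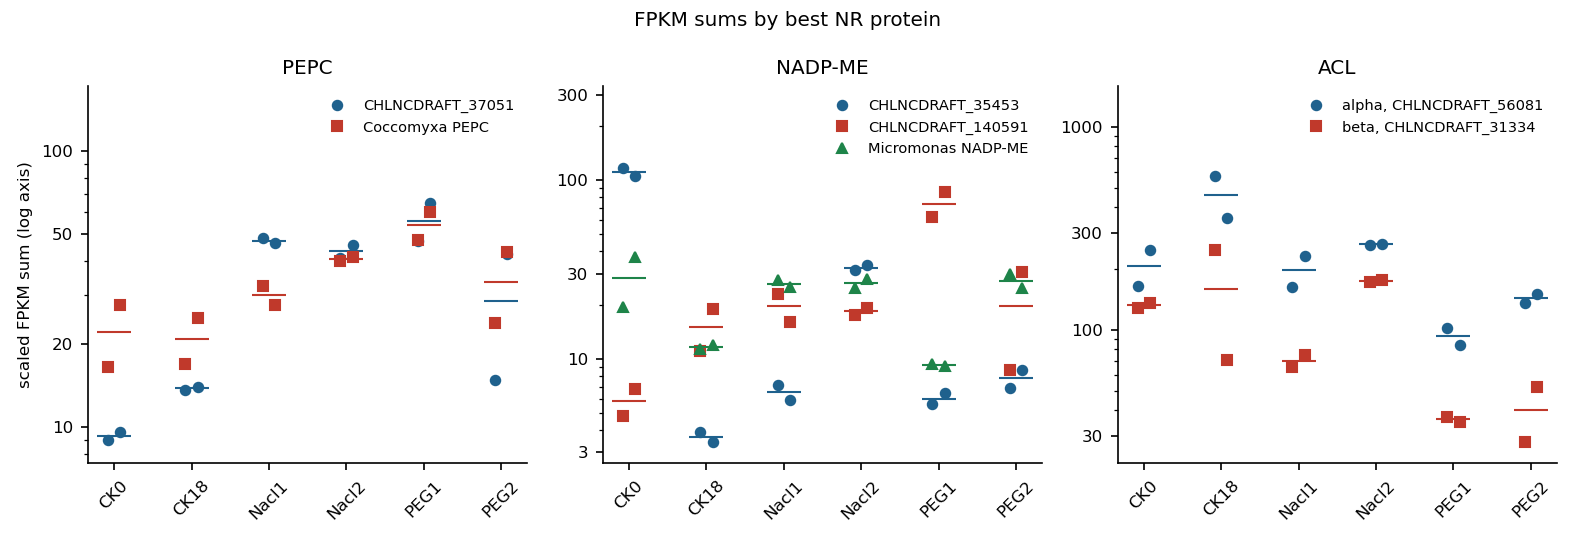
Scaled FPKM sums (log axis) over the unigenes with 1 best protein hit, for PEPC, NADP-ME and ACL, with points for the 2 libraries of a group and a bar for their mean. For NADP-ME, CHLNCDRAFT_35453 runs from 3.42 in CK18 to 117 in CK0, while CHLNCDRAFT_140591 reaches 85.7 in PEG1.

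The PDH subunits were called in different comparisons, and differences between subunits were not tested. E1 alpha and E1 beta were up-regulated between the days, E2 was up-regulated at 0.1 M NaCl and in PEG1, and E3 was called in no comparison. The E1 alpha sum was 129 and 148 in CK0, 283 and 272 in CK18, 363 and 391.7 in Nacl1, 302 and 276 in Nacl2, 428 and 529 in PEG1, and 212 and 391 in PEG2. Both CK0 libraries were below all later ones, both Nacl1 and both PEG1 libraries were above CK18, and Nacl2 and PEG2 overlapped it.

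E1 alpha was 2.01-fold higher at day 18 than at day 0 (log2 fold change 1.004 ± 0.25 SE, adjusted p = 0.00526), a value at the size threshold that 13 settings took below it and that turned to -0.43 when each library was divided by its total FPKM. Among those settings were the omission of CK0 replicate 1 (0.91), CK18 replicate 1 (0.98), either Nacl1 library (both 0.99) and PEG1 replicate 2 (0.995). In PEG1 its log2 difference from CK18 was 0.78 (adjusted p = 0.0314) and at 0.1 M NaCl it was 0.44 (adjusted p = 0.214). Cluster-31803.80534 (1105 bp, chloroplastic E1 alpha-3) gave 58.2% of the FPKM.

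The E1 beta sum was 91.6 and 102 in CK0, 258 and 227 in CK18, 316 and 344 in Nacl1, 266 and 261 in Nacl2, 343 and 385 in PEG1, and 206 and 243 in PEG2. Both CK0 libraries were below all later ones, all Nacl1, Nacl2 and PEG1 libraries were above CK18, and PEG2 overlapped it. It was 2.51-fold higher at day 18 than at day 0 (1.33 ± 0.15, adjusted p = 3.91e-05), with a difference of 0.40 in the deposited FPKM, 0.64 after quantile normalization and -0.10 after division by total FPKM. In PEG1 it was 1.5-fold the CK18 level (0.58, adjusted p = 0.0129) and PEG2 was below PEG1 (-0.70, adjusted p = 0.00919), both short of the size threshold.

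The E2 sum was 99.6 and 109.7 in CK0, 130.1 and 140.5 in CK18, 314 and 349.6 in Nacl1, 215 and 219 in Nacl2, 284 and 363 in PEG1, and 157 and 252 in PEG2. All 8 treated libraries were above all 4 untreated ones. E2 was up-regulated 2.45-fold at 0.1 M NaCl (1.29 ± 0.22, adjusted p = 0.00298) and 2.37-fold in PEG1 (1.25 ± 0.22, adjusted p = 0.00188), and both calls held under all 27 settings. The differences at 0.8 M NaCl (0.68, adjusted p = 0.0226) and in PEG2 (0.56, adjusted p = 0.15) were not called. The first was called under each of the 4 other scalings, at 1.12 (quantile normalization), 1.40 (factors of the unigenes), 1.69 (deposited FPKM) and 2.37 (division by total FPKM).

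The E3 sum was 153 and 135 in CK0, 142 and 120.1 in CK18, 169.6 and 194 in Nacl1, 137 and 149 in Nacl2, 132 and 151 in PEG1, and 160.0 and 135 in PEG2. The groups overlapped except that Nacl1 was above the rest. Its log2 differences ran from -0.34 (Nacl2 against Nacl1, but 0.24 with the factors of the unigenes and 0.36 after division by total FPKM) to 0.47 (Nacl1 against CK18, adjusted p = 0.0635), and at 0.8 M NaCl the 95% interval was -0.25 to 0.51. Within a library, where no scaling enters, the level of E2 relative to E1 alpha was 0.46 and 0.52 in CK18 and 0.65 to 0.89 in all other libraries, and that of E3 relative to E1 alpha was 1.18 and 0.91 in CK0 and at most 0.75 later.

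The PDH unigenes were divided by the compartment word in their Swiss-Prot annotation, chloroplastic or mitochondrial. Chloroplastic unigenes gave 70.2% of the FPKM of E1 alpha, 41.9% of E1 beta, 30.3% of E2 and 42.7% of E3, and mitochondrial ones 29.8%, 57.6%, 42.3% and 49.0%. Unigenes with neither word gave 27.4% of E2 and 8.29% of E3 and are left out of both kinds of sum. Those of E2 were at 30.3 and 45.5 in CK18, 71.0 and 71.4 in Nacl2, and 81.8 and 81.3 in PEG1. The compartment words are those of the closest annotated proteins, and no targeting of the algal proteins was measured. The chloroplastic E1 beta sum was 9.29 and 10.3 in CK0, 113 and 86.9 in CK18, 152 and 174 in Nacl1, 88.4 and 89.7 in Nacl2, 188 and 236 in PEG1, and 48.7 and 89.0 in PEG2. The mitochondrial one went only from 81.9 and 90.8 in CK0 to 144 and 138 in CK18, and it stayed between 146 and 177 in all treated libraries.

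From day 0 to day 18 the chloroplastic sums of E1 alpha (log2 1.37 ± 0.30, adjusted p = 0.00283, though 0.44 with the deposited FPKM, 0.68 after quantile normalization and -0.06 after division by total FPKM, none of them called), E1 beta (3.32 ± 0.27, adjusted p = 5.49e-06) and E2 (2.27 ± 0.64, adjusted p = 0.0118) were called higher, where 46.1% of all 3698 sums by KO identifier and compartment were called. The mitochondrial sums of the same subunits had differences of 0.28, 0.71 and -0.04, none of them called. With the deposited FPKM these were -0.65, -0.22 and -0.97, and after division by total FPKM they were -1.15, -0.72 and -1.47, of which the first and the last were called lower. The chloroplastic E2 sum went from 7.08 and 10.2 in CK0 to 50.6 and 33.8 in CK18, and its call was lost without CK0 replicate 1 (2.01, adjusted p = 0.0702) or CK18 replicate 1 (1.99, adjusted p = 0.0778), with the deposited FPKM (1.34, adjusted p = 0.0815) and after division by total FPKM (0.85, adjusted p = 0.256).

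**Figure D3:**
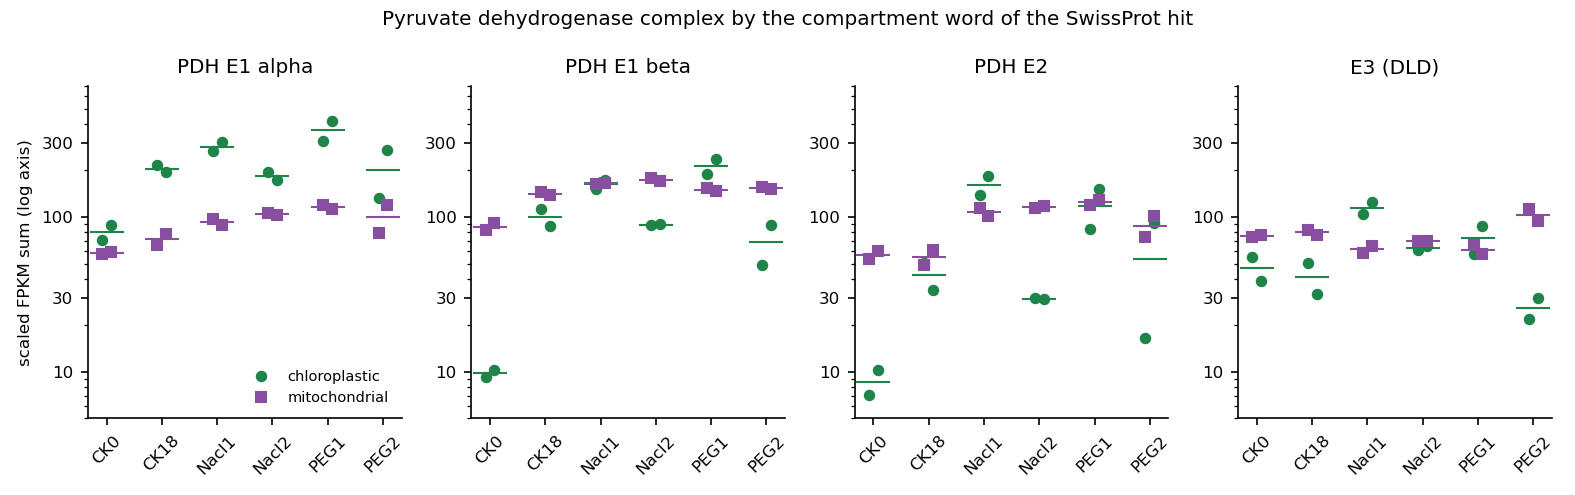
Scaled FPKM sums (log axis) of chloroplastic and mitochondrial unigenes of the 4 PDH subunits, with points for the 2 libraries of a group and a bar for their mean. Chloroplastic E1 beta is at 9.29 and 10.3 in CK0 and at 48.7 or above in every later library.

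The difference between the compartments was tested as the log2 ratio of the chloroplastic to the mitochondrial sum within each library, in which the library factors cancel, for all 62 KO identifiers with both kinds. The E1 beta ratio was 0.115 in both CK0 libraries, 0.785 and 0.628 in CK18, 0.932 and 1.047 in Nacl1, 0.4998 and 0.525 in Nacl2, 1.23 and 1.61 in PEG1, and 0.314 and 0.592 in PEG2. The E1 alpha ratio was 1.23 and 1.49 in CK0, 3.31 and 2.49 in CK18, and 1.67 to 3.71 in the treated libraries. The E2 ratio was 0.135 and 0.172 in CK0, 1.03 and 0.555 in CK18, 1.22 and 1.80 in Nacl1, and 0.263 and 0.251 in Nacl2. For all 3 subunits both CK0 libraries were below every later library.

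From day 0 to day 18 the ratio was called higher for E1 beta (2.61 ± 0.37, adjusted p = 0.000738), E2 (2.31 ± 0.64, adjusted p = 0.016) and E1 alpha (1.09 ± 0.34, adjusted p = 0.0237) but not for E3 (-0.28). These 3 of 4 subunits stand against 61.3% of the 62 ratios called, with 43.5% of the 62 called higher. The E1 beta call held under all 18 settings. The E2 call was lost without CK0 replicate 1 (2.14, adjusted p = 0.0730) or CK18 replicate 1 (1.87, adjusted p = 0.0933), and the E1 alpha call was lost without the same libraries (0.94 and 0.88, adjusted p 0.112 and 0.128).

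Under treatment the ratio was called for E1 beta, E2 and E3, each in at least 1 comparison. Chloroplastic E2 was at 138 and 183 in Nacl1 against 29.8 and 29.5 in Nacl2, while mitochondrial E2 was at 113 and 101 against 114 and 118. Its ratio was 5.77-fold lower at 0.8 M than at 0.1 M NaCl (-2.53 ± 0.64, adjusted p = 0.0214, against 30.6% of the ratios called), a call lost without any of those 4 libraries (-2.81 to -2.25, adjusted p 0.0743 to 0.0997). Mitochondrial E2 was called higher than CK18 at 0.8 M NaCl (1.08 ± 0.20, adjusted p = 0.00119, against 45.6% of such sums called, 0.92 without CK18 replicate 1) and in PEG1 (1.17, adjusted p = 0.00175, against 24.9%).

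The E1 beta ratio was lower in PEG2 than in PEG1 (-1.71, adjusted p = 0.0175, against 17.7% of the ratios called). It was not called without either PEG1 library (-1.90 and -1.51) or without PEG2 replicate 1 (-1.25). Chloroplastic E1 beta, whose values stand above, was itself called higher in PEG1 than in CK18 (1.09, adjusted p = 0.0113, 0.90 without CK18 replicate 2 and 0.94 without PEG1 replicate 2, neither called) and lower in PEG2 than in PEG1 (-1.68, adjusted p = 0.00307, against 15.7% of the sums by compartment called).

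Chloroplastic E3 was at 50.4 and 31.6 in CK18, 105 and 124 in Nacl1 and 21.8 and 30.0 in PEG2, while mitochondrial E3 was at 82.6 and 76.0, 58.7 and 65.0, and 112 and 94.5. The E3 identifier also held unigenes whose best protein hit was a translation initiation factor, eIF-2B subunit epsilon. Their sum was 31.4 and 12.8 in CK18 and 2.98 and 7.26 in Nacl1. In CK18 replicate 1 the sum with no compartment word was 9.13, and the chloroplastic sum matched CHLNCDRAFT_58327, both 50.4. Most of the 31.4 was thus part of mitochondrial E3. The E3 sums and ratio were not tested without these unigenes. The E3 ratio was higher in Nacl1 than in CK18 (1.88 ± 0.41, adjusted p = 0.0283, against 6.45% of the ratios called), lower in PEG2 than in PEG1 (-2.22, adjusted p = 0.0126) and higher in Nacl2 than in PEG2 (1.86, adjusted p = 0.00845, against 32.3%). The first was lost without any 1 library of CK18 or Nacl1 (1.6 to 2.15, adjusted p 0.0581 to 0.206), the second without PEG1 replicate 2 (-1.83, adjusted p = 0.165) and the third without Nacl2 replicate 2 (1.82, adjusted p = 0.0539). None of the 4 subunit ratios was called in Nacl2, PEG1 or PEG2 against CK18, where 33.9%, 16.1% and 0% of the 62 were.

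ACL, the cytosolic source of acetyl-CoA, was below CK18 in PEG1, PEG2 and Nacl1. Its sum was 299.8 and 387 in CK0, 819 and 432 in CK18, 237 and 311 in Nacl1, 438 and 442 in Nacl2, 147 and 125 in PEG1, and 165 and 205 in PEG2. All PEG and Nacl1 libraries were below both CK18 libraries, Nacl2 overlapped CK18, and the 2 CK18 libraries themselves lay far apart.

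ACL was down-regulated 4.39-fold in PEG1 (log2 fold change -2.13 ± 0.28 SE, adjusted p = 0.000479), 3.22-fold in PEG2 (-1.69 ± 0.28, adjusted p = 0.0071) and 2.19-fold at 0.1 M NaCl (-1.13 ± 0.28, adjusted p = 0.0155). At 0.8 M NaCl the difference was -0.43 (interval -1.06 to 0.19), which became 0.03 without CK18 replicate 1, 0.29 with the factors of the unigenes, 0.43 after quantile normalization, 0.58 with the deposited FPKM and 1.26 after division by total FPKM. Nacl2 was 2.39-fold above PEG2 (1.25, adjusted p = 0.00388). Without CK18 replicate 1 the change was -1.22 in PEG2 (adjusted p = 0.0580) and -0.67 in Nacl1 (adjusted p = 0.0948), neither called. The Nacl1 call was also lost without Nacl1 replicate 1 (-0.93, adjusted p = 0.0953), and it was not called under any of the 4 other scalings, which gave -0.47 (deposited FPKM), -0.77 (quantile normalization), -0.98 (factors of the unigenes) and -0.14 (division by total FPKM), or with read quality as a covariate (-1.09, adjusted p = 0.102).

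ACL consists of alpha and beta chains. The alpha chain protein CHLNCDRAFT_56081 was at 569 and 355 in CK18, 161.4 and 231 in Nacl1, 262 and 265 in Nacl2, 101 and 84.5 in PEG1, and 135 and 151 in PEG2. It was called lower in PEG1 under every setting (-2.28, adjusted p = 0.000376). The beta chain protein CHLNCDRAFT_31334 was at 246 and 70.7 in CK18, 65.3 and 75.1 in Nacl1, 172 and 175 in Nacl2, 37.1 and 35.1 in PEG1, and 28.03 and 52.0 in PEG2. The beta chain was called lower in PEG1 as well (-1.87, adjusted p = 0.021), but not without CK18 replicate 1 (-0.97, adjusted p = 0.0829) or either PEG1 library (adjusted p 0.102 and 0.121), nor with the deposited FPKM (-1.28, adjusted p = 0.0804). A single alpha chain unigene, Cluster-31803.60846 (2131 bp), gave 61.4% of the ACL FPKM and was at 490.2 and 287 in CK18 and at 80.7 and 56.4 in PEG1 (-2.47, adjusted p = 0.0013). Without the highest unigene of each enzyme the PEG1 change of ACL was -1.37 (adjusted p = 0.0504).

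**Figure D4:**
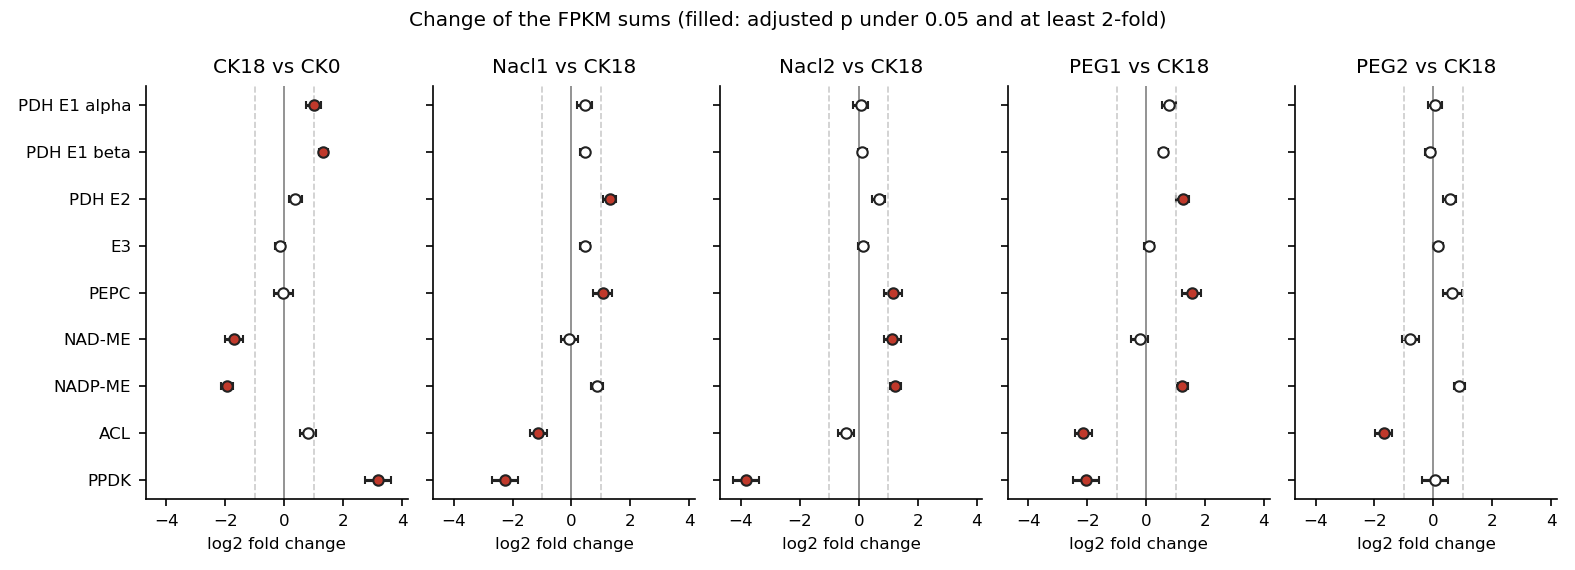
Log2 fold change of each of the 9 enzymes in the 5 comparisons that involve CK18, with bars for the SE and filled points for changes that were called. PPDK reaches -3.84 in Nacl2 and 3.18 from day 0 to day 18, while E3 lies between -0.14 and 0.47.

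At the level of single unigenes, scaled by factors of their own, 47 of the 181 members tested (26%) were called at 0.8 M NaCl, 33 of them higher, where 23% of all 103195 unigenes were called. In PEG1, 30 (16.6%, 21 higher) were called against 13.3% of all unigenes, from day 0 to day 18 37 (20.4%, 16 higher) against 21.9%, in Nacl1 7 (3.87%, 3 higher) against 4.08%, and in PEG2 3 (1.66%, none higher) against 1.36%. These shares are near the background in each comparison. Of all unigenes 14.5% were called higher and 8.48% lower in Nacl2, 8.88% and 4.44% in PEG1, 9.57% and 12.3% from day 0 to day 18, 1.74% and 2.34% in Nacl1, and 0.64% and 0.72% in PEG2. At 0.8 M NaCl, 8 of 16 NAD-ME and 7 of 25 E2 unigenes were higher and none lower, and 6 of 7 PPDK unigenes were lower and none higher. From day 0 to day 18, 10 of 16 NAD-ME unigenes were lower and 1 higher, and 5 of 7 PPDK unigenes were higher.

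Leaving out 1 library moved the unigene counts for PEG1 to 2 (either PEG1 library), 12 (CK18 replicate 1) or 18 (CK18 replicate 2) and the count between the days to 23 (CK0 replicate 1). The count for Nacl1 became 0 without either CK18 library, 1 without Nacl1 replicate 2 or either Nacl2 library, 3 without Nacl1 replicate 1 and 13 without either PEG2 library. The count for PEG2 became 0 or 1 without any library of CK0, Nacl2, PEG1 or PEG2 or without CK18 replicate 1.

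The steepest called rise between the days, among member unigenes with at least 5 scaled FPKM, was in E1 alpha. Cluster-31803.80535 (2219 bp, chloroplastic E1 alpha-3) was at 1.51 and 0 in CK0, 11.0 and 9.50 in CK18, 41.5 and 35.3 in Nacl1, 24.4 and 24.0 in Nacl2, 33.6 and 50.5 in PEG1, and 6.87 and 29.9 in PEG2. Its log2 difference between the days was 4.68 (adjusted p = 0.0176), a value that depends on the constant of 0.1 because 1 library was listed at 0. It was 2.66 and no longer called without that library, CK0 replicate 2, and 4.63 and 4.82, not called, without CK18 replicates 1 and 2.

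In E2, Cluster-31803.50028 (1889 bp, mitochondrial) was at 0 and 1.59 in CK18 and at 19.1 and 23.9 in PEG1 (5.71, adjusted p = 0.0183), with the same limit. Its call was lost without CK18 replicate 1 (3.64) or either PEG1 library (5.55 and 5.87). The highest E2 unigene, Cluster-31803.31358 (2255 bp, mitochondrial), was at 30.1 and 33.7 in CK18 and at 99.9 and 103 in Nacl2 (1.67, adjusted p = 0.00297). The highest E3 unigene, Cluster-31803.59298 (9756 bp, mitochondrial), was at 29.3 and 40.5 in CK18 and 77.5 and 75.9 in Nacl2 (1.15, adjusted p = 0.0073). Without CK18 replicate 1 its difference was 0.86, below the size threshold. The E3 sum, which has other library factors, differed by 0.13. With the factors of the unigenes the E3 sum differed by 0.85, and neither value was called.

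Of 28 further KO identifiers of pyruvate, malate, citrate and acetyl-CoA metabolism, 24 occurred in the annotation and 23 were tested. At 0.1 M NaCl 5 were called higher and 3 lower, at 0.8 M NaCl 4 and 2, in PEG1 2 and 3, in PEG2 7 and 0, and from day 0 to day 18 5 and 6. Of all KO sums, 16.7%, 45.3%, 25.4%, 5.71% and 47.5% were called in these comparisons. Their median log2 changes were -0.23, 0.24, 0.02, 0.27 and -0.28. With the deposited FPKM the calls were 8 higher and 3 lower, 15 and 2, 7 and 2, 7 and 0, and 1 and 14, where the calls of all KO sums lean the same way, as given above.

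PEG2, in which ACL alone was called among the 9 enzymes, had 7 of these 23 called higher under the main scaling and none lower, where 2.56% of all KO sums were called higher and 3.15% lower. Quantile normalization gave 5 higher and none lower. The further enzymes were refitted under the other scalings only, and their calls were not tested without single libraries. Acetyl-CoA synthetase (ACS, K01895), which activates acetate, was at 1914 and 2756 in CK18 and at 11282 and 18196 in PEG2 (log2 2.64, adjusted p = 0.00614). Phosphoenolpyruvate carboxykinase (PEPCK, K01610), which makes phosphoenolpyruvate from oxaloacetate, was at 296 and 319 in CK18 and at 1033 and 1104 in PEG2 (1.80, adjusted p = 0.00188). Citrate synthase (1.43, adjusted p = 0.0241) and the E1 and E2 components of 2-oxoglutarate dehydrogenase (1.11 and 1.03, adjusted p 0.0188 and 0.0349), which shares E3 with PDH, were also called higher.

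Some of the further enzymes had the order of the malic enzymes, high at day 0 and at 0.8 M NaCl. The NAD aldehyde dehydrogenase sum (ALDH, K00128) was 641 and 722 in CK0, 30.3 and 38.8 in CK18, 119 and 87.0 in Nacl1, 525 and 506 in Nacl2, and 80.0 to 247 in the PEG libraries, a log2 difference of -4.31 between the days (adjusted p = 1.4e-05) and 3.91 at 0.8 M NaCl (adjusted p = 4.5e-05). Cytosolic-type malate dehydrogenase (MDH1, K00025) was at 521 and 642 in CK0, 74.3 and 98.3 in CK18, and 384 and 386 in Nacl2 (-2.76, adjusted p = 3.29e-05, and 2.17, adjusted p = 0.000229). Both were called in the same direction under all 5 scalings.

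Acetyl-CoA carboxylase uses acetyl-CoA for fatty acid synthesis. Its biotin carboxylase (BC, K01961) was at 10.2 and 16.3 in CK0, 53.6 and 25.2 in CK18, 111 and 122 in Nacl1, 30.7 and 33.3 in Nacl2, 65.3 and 105 in PEG1, and 10.2 and 21.3 in PEG2. It was called higher at 0.1 M NaCl than in CK18 (1.66, adjusted p = 0.0179) and lower at 0.8 M than at 0.1 M NaCl (-1.87, adjusted p = 0.00635). At 0.1 M NaCl the log2 differences of the alpha and beta carboxyltransferase subunits and the multifunctional enzyme from CK18 were 0.07, -1.47 and -0.94, none of them called. Between the salt levels they were -0.65, 2.45 and 0.50, of which the beta subunit was called higher at 0.8 M NaCl (adjusted p = 0.00908). The beta subunit sum was only 0.50 and 0.97 in CK18, 0.35 and 0.085 in Nacl1, and 1.56 and 1.40 in Nacl2. Its log2 differences therefore depend on the constant of 0.1.

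**Figure D5:**
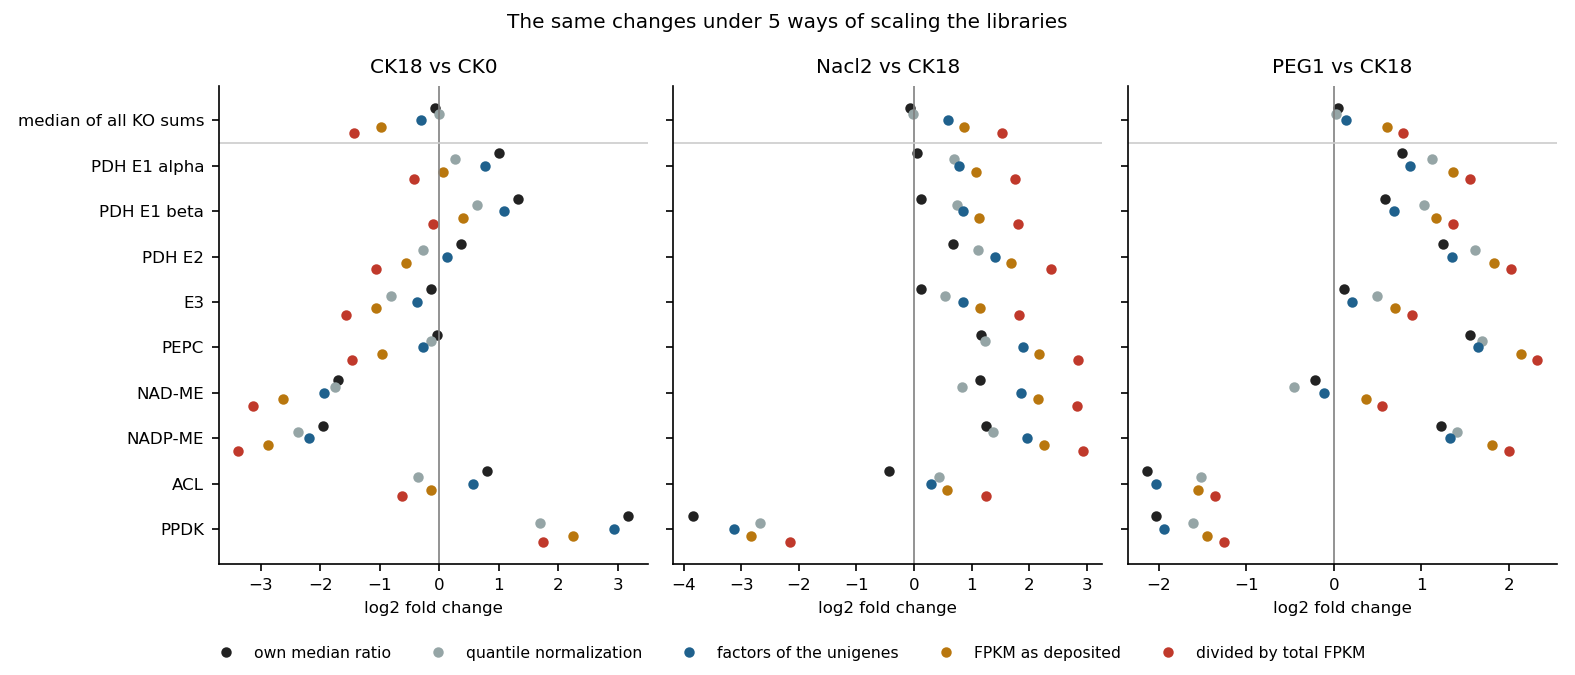
Log2 fold change of the 9 enzymes and of the median KO sum (top row) in 3 comparisons under 5 ways of scaling the libraries, marked by colour. The PPDK points keep their side of 0 in all 3 panels, and those of E1 alpha, E1 beta, E2 and ACL between the days lie on both sides of it.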

How the data were processed

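By the study's methods, quality-filtered reads went into a de novo Trinity assembly. Corset clusters of its transcripts were each represented by their longest member, the unigene, with NR, Swiss-Prot and KEGG annotation. Abundance came from Bowtie 2 alignments through RSEM. The deposited table holds the authors' FPKM for each unigene and library, and counts were not used here. FPKM were summed by KO identifier, and also by compartment word or best NR protein. KO sums and unigenes were each scaled by median ratios, and the sums by compartment and protein took the KO factors. Features with at least 0.3 before scaling in 2 or more libraries were kept. They were fitted as log2(value + 0.1) with limma (version 3.58.1, trend) in R 4.3.3. The 1 fit of the 6 groups had 6 residual degrees of freedom, and p-values were adjusted by Benjamini-Hochberg. The ratio of compartments was fitted without trend. The study's own tests used count methods. The ratio test, protein sums and some alternatives were chosen after the data were seen.

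The named unigenes were the highest of each enzyme, the called member with the steepest rise and fall in each of 5 comparisons (at least 5 scaled FPKM and no overlap), and 2 measured by qRT-PCR in the study. The members, lists and tests were chosen with earlier results of these data known. On simulated data for Nacl2 against CK18, 80.6%, 85.1% and 94.4% of KO sums changed by 1.5, 2 and 3 on the log2 scale were recovered among 3150 tested, with 3.91% false calls. For unigenes 0%, 6.25% and 24.2% were recovered among 81892, with 5% false calls. In each of these 2 simulations 200 features were changed, while in the data 45.3% of KO sums and 23% of unigenes were called. The Benjamini-Hochberg adjustment depends on the share changed, so these rates do not carry over to the data. For the ratio, 4 of 6 changed identifiers were recovered among 62. No genome or sequence was used here.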

Additional observations from a re-analysis of the deposited data

How the results depend on the processing

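Each count of called members was recomputed under other settings, of which division by total FPKM, the length limits and the sums by protein were chosen after seeing the data. With an adjusted p below 0.01 the KO sums called were 2 (Nacl1, 4 in the main analysis) and 1 (Nacl2 against Nacl1, 2), and the unigenes called were 0 (Nacl1, 7), 30 (Nacl2, 47), 12 (PEG1, 30) and 0 (PEG2, 3). Without a fold limit the KO sums were 2 in PEG2 (1) and 3 in PEG2 against PEG1 (1). The deposited FPKM gave 7 (Nacl1), 8 (Nacl2, 4), 6 (PEG2 against PEG1) and 7 KO sums (Nacl2 against PEG2, 3) and 1 unigene in PEG2. Division by total FPKM gave 7, 9, 7 and 9 KO sums in those comparisons, and 21 (Nacl1) and 0 unigenes (PEG2). Quantile normalization gave 2 (Nacl1), 3 (CK18 against CK0, 5) and 5 KO sums (PEG2 against PEG1), and the factors of the unigenes gave 2 (PEG2 against PEG1) and 5 (Nacl2 against PEG2). Read quality as a covariate gave 2 KO sums and 1 unigene in Nacl1 and 0 unigenes in PEG2, where 3 separate fits gave 0 KO sums and 0 unigenes. Those fits gave 18 unigenes each in Nacl1 and PEG1. Without the highest unigene of each enzyme the KO sums were 0 (PEG2), 3 (CK18 against CK0) and 2 (PEG2 against PEG1), and with green algal hits only 2 (PEG2 against PEG1). A mean FPKM of at least 1 gave 11 (Nacl1), 28 (Nacl2), 18 (PEG1), 1 (PEG2) and 24 unigenes (CK18 against CK0, 37), and a constant of 1 gave 1 (PEG2).

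Without 1 library the KO sums called ranged from 2 to 4 (Nacl1), 2 to 4 (Nacl2), 4 to 5 (PEG1), 0 to 3 (PEG2), 4 to 6 (CK18 against CK0), 0 to 2 (Nacl2 against Nacl1), 0 to 4 (PEG2 against PEG1) and 3 to 4 (Nacl2 against PEG2). The unigenes ranged from 0 to 13 (Nacl1), 32 to 48 (Nacl2), 2 to 35 (PEG1), 0 to 3 (PEG2) and 23 to 41 (CK18 against CK0). For unigenes the replicate numbers showed little sign of pairing: over the 15 pairs of groups the correlation of deviations was -0.0409 to 0.0915. For KO sums it was -0.186 to 0.432, which does not settle whether some groups share a replicate effect. With a replicate block the count of member unigenes in PEG2 was 0 in place of 3, and the E3 ratio in Nacl1 had an adjusted p of 0.0506.

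Several differences that were not called changed sign with the scaling. ACL in Nacl2 (-0.43) was 0.58 with the deposited FPKM, 0.43 after quantile normalization and 0.29 with the factors of the unigenes. Between the days, E2 (0.37) was -0.56 with the deposited FPKM and -0.28 after quantile normalization, and ACL (0.80) was -0.13 and -0.36. The turns in which the main or the other value was called came with division by total FPKM, after which the median of all KO sums was 1.54 in Nacl2 and -1.43 between the days, against -0.07 and -0.07. Between the days these values became -0.43 (E1 alpha), -0.10 (E1 beta), -1.06 (E2), -0.064 and -1.15 (chloroplastic and mitochondrial E1 alpha), -1.35 (mitochondrial E3), -0.28 (ACL CHLNCDRAFT_56081) and -0.11 (Cluster-31803.80534). In Nacl2 against CK18 they became 1.26 (ACL, whose unigenes have no compartment word), 1.54 (chloroplastic E1 alpha and E1 beta), 1.51 (mitochondrial E3) and 1.45 (E3 with no compartment word). In Nacl2 against PEG2 they became 1.6 (E3), 1.59 (chloroplastic NADP-ME and the *Micromonas*-like NADP-ME), 1.61 (chloroplastic E1 alpha) and 1.08 (mitochondrial E3). Apart from the scaling itself, the causes were not tested. With 2 libraries a group and no counts, the precision rests on the 6 residual degrees of freedom. It also rests on the spread that limma's moderated test borrows from all other features.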
